A study of Mus musculus with 6 samples.

Results

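The 10 early response genes described here were Egr1, Egr2, Egr3, Nr4a1, Nr4a2, Nr4a3, Ier2, Ier3, Ier5 and Btg2, out of 18193 genes measured in mouse N-myc leukaemias with and without Cdh1. They were chosen by name, with earlier results of these data known, and for each the probe set that averaged highest on the 6 arrays stood for the gene, among those annotated to that symbol alone. All 10 were measured, with 22 such probe sets between them. Cdh1-deficient leukaemias (n = 3) carried Mx1-Cre and the conditional gene-trap allele of Cdh1 on both chromosomes (Mx1-Cre(+)/Cdh1f/f), and Cdh1-intact leukaemias (n = 3) carried the same allele without Cre (Mx1-Cre(-)/Cdh1f/f). The background was C57BL/6 for all. Per the labels, both groups of donors received pIpC at 7 to 8 weeks of age. Their marrow was taken 4 weeks after the last injection and 2 days after 150 mg/kg 5-fluorouracil. N-myc was delivered with the retroviral vector pMXs-IG, and GFP-positive marrow mononuclear cells were sorted from each moribund mouse, so 1 array was taken as 1 mouse. Mx1-Cre acts in interferon-responsive cells of many kinds, not in B cells alone, and the sort used GFP with no lineage marker named.

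Early response genes are switched on within minutes of a growth factor, antigen receptor or stress signal, without the need for new protein. Signals through the RAS-ERK cascade, calcium and cyclic AMP reach their promoters by way of serum response factor with its ETS partners, CREB and MEF2, and the transcripts are then quickly degraded. The EGR proteins are zinc finger transcription factors, and the NR4A proteins are orphan nuclear receptors whose activity follows their amount. In lymphocytes Egr2, Egr3 and the NR4A genes are known as targets of antigen receptor signalling. The IER genes encode regulators of transcription, cell survival and the stress response, and Btg2 encodes an antiproliferative protein that recruits the CCR4-NOT deadenylase.

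The upstream sequences of 5 members are given because the NR4A trio, Egr2 and Btg2 carry known signal-response motifs there. RefSeq windows (GRCm38.p6) matched 7 of the 10 members, and the 250 bases before each start were searched on both strands for the cyclic AMP response element core TGACG, the whole element TGACGTCA, which contains that core on both strands, the CArG box of serum response factor, the EGR site GCGTGGGCG or GCGGGGGCG, and the NR4A site AAAGGTCA. Capitals mark matches.
Nr4a1, chr15:101266596-101266845, plus strand: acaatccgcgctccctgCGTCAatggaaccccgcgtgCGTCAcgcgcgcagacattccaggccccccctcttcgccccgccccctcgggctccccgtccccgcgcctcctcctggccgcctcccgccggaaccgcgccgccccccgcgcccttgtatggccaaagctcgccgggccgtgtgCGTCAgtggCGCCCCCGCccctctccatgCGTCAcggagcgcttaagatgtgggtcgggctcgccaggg
Nr4a2, chr2:57124004-57124253, minus strand: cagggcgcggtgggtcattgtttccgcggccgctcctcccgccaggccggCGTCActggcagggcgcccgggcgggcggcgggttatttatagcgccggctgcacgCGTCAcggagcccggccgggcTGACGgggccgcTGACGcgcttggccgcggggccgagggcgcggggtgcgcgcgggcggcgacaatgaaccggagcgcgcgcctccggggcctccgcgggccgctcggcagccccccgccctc
Nr4a3, chr4:48045055-48045304, plus strand: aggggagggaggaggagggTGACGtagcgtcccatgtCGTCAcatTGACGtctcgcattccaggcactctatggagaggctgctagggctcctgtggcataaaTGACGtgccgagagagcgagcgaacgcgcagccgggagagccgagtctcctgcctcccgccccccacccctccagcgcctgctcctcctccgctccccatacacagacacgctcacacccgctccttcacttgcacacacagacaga
Egr2, chr10:67537680-67537929, plus strand, the last of 5 listed starts: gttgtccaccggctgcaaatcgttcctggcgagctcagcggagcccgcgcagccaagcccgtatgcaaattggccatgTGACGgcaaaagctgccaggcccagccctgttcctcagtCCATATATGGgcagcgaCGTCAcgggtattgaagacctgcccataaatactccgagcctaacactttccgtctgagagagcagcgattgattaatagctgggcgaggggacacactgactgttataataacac
Btg2, chr1:134079156-134079405, minus strand: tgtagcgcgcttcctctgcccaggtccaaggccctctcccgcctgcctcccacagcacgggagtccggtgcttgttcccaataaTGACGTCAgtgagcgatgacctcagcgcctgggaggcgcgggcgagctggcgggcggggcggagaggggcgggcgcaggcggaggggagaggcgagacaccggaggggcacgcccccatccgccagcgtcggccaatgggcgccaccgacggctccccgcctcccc

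The windows of Nr4a1, Nr4a2 and Nr4a3 each held 4 matches to TGACG on either strand, a number that 0.137% of all 32851 listed windows of this length reached or passed. At least 1 match was present in 17.8% of all windows. The Btg2 window held the whole element TGACGTCA, present in 1.55% of all windows. A CArG box stood in 4 of the 5 Egr2 windows and in no other matched member, against 1.47% of all windows. Of these windows 3 overlap and hold the same box, so the distinct boxes number 2. An EGR site, on the minus strand, stood in the Nr4a1 window alone of the matched members, against 3.06% of all windows. The windows of Ier3 and Ier5 held none of these letters, and the NR4A site was found in 0 of the 7 matched members, against 1.34% of all windows. Egr1, Egr3 and Ier2 were not searched. A match describes the sequence and does not show that a factor was bound in these cells.

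Levels are log2 RMA values, on which a step of 1 is a doubling of signal. They are not comparable between probe sets, so each member was read only against itself on other arrays. The lower quartile of all probe sets was 3.75 to 3.83 on the 6 arrays, and a level around it is called near the floor here. The Cdh1 of the labels is the product of Fzr1, whose probe set lay at 7.73 to 8.22 on the Cdh1-deficient arrays. It lay at 8.92, 8.04 and 8.92 on Cdh1-intact arrays 1, 2 and 3, so the groups overlapped through Cdh1-intact array 2 alone. The Fzr1 difference, Cdh1-deficient minus Cdh1-intact, was −0.61 (SE 0.28, limma adjusted p = 0.849). Where its probes lie relative to the trap was not known here. Cdh1-intact array 2 went against the B-cell label: the mean log2 level of 9 measured of 10 listed B-cell markers ran from 8.75 to 9.14 on the Cdh1-deficient arrays and was 8.92, 4.97 and 9.39 on Cdh1-intact arrays 1, 2 and 3. For 10 measured of 12 listed T and NK cell markers the mean ran from 5.15 to 5.22 on the Cdh1-deficient arrays and was 5.48, 9.37 and 6.60 on the Cdh1-intact arrays. The member differences and the medians of the lists other than cell markers are therefore also given without Cdh1-intact array 2, as are the genes named at the ends of a list where their direction turned. Other genes of the lists also turned and are not named. Leaving out array 2 does not remove all T and NK marker signal, since Cdh1-intact array 3 also lay above the Cdh1-deficient arrays. In these sorted but bulk samples, fewer cells expressing a gene and less RNA per cell cannot be told apart.

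All 10 members had a lower mean in Cdh1-deficient than in Cdh1-intact leukaemias, but none passed the test over all genes. The median log2 difference, Cdh1-deficient minus Cdh1-intact, was −1.04, beside 0.0034 over all genes, and 6 of the 10 differences were −1 or below, a size reached by 1.21% of all genes. A lower mean of any size was found for 49.1% of all genes. With limma and Benjamini-Hochberg adjustment over 18193 genes, 0 genes were called (0%), and the adjusted p of the members ran between 0.849 and 0.995. At an unadjusted p under 0.05, 3 members were lower (Nr4a1, Nr4a2 and Btg2), against 1.49% of all genes in that direction. The same 3 were the members whose groups did not overlap, against 5.09% of all genes. These counts describe genes picked with the outcome in view, and nothing is read from their excess over the background. With 1 array left out at a time, 7 to 10 members were lower, the median ran between −1.30 and −0.72, and 3 to 6 did not overlap. The fewest lower, 7, came without Cdh1-intact array 1, and the most without overlap, 6, without Cdh1-intact array 3. A lack of overlap is reached more easily with fewer arrays, and the share over all genes is not given for these fits. Leaving out Cdh1-intact array 2 gave 10 lower, a median of −1.10 and 3 without overlap.

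**Figure D1:**
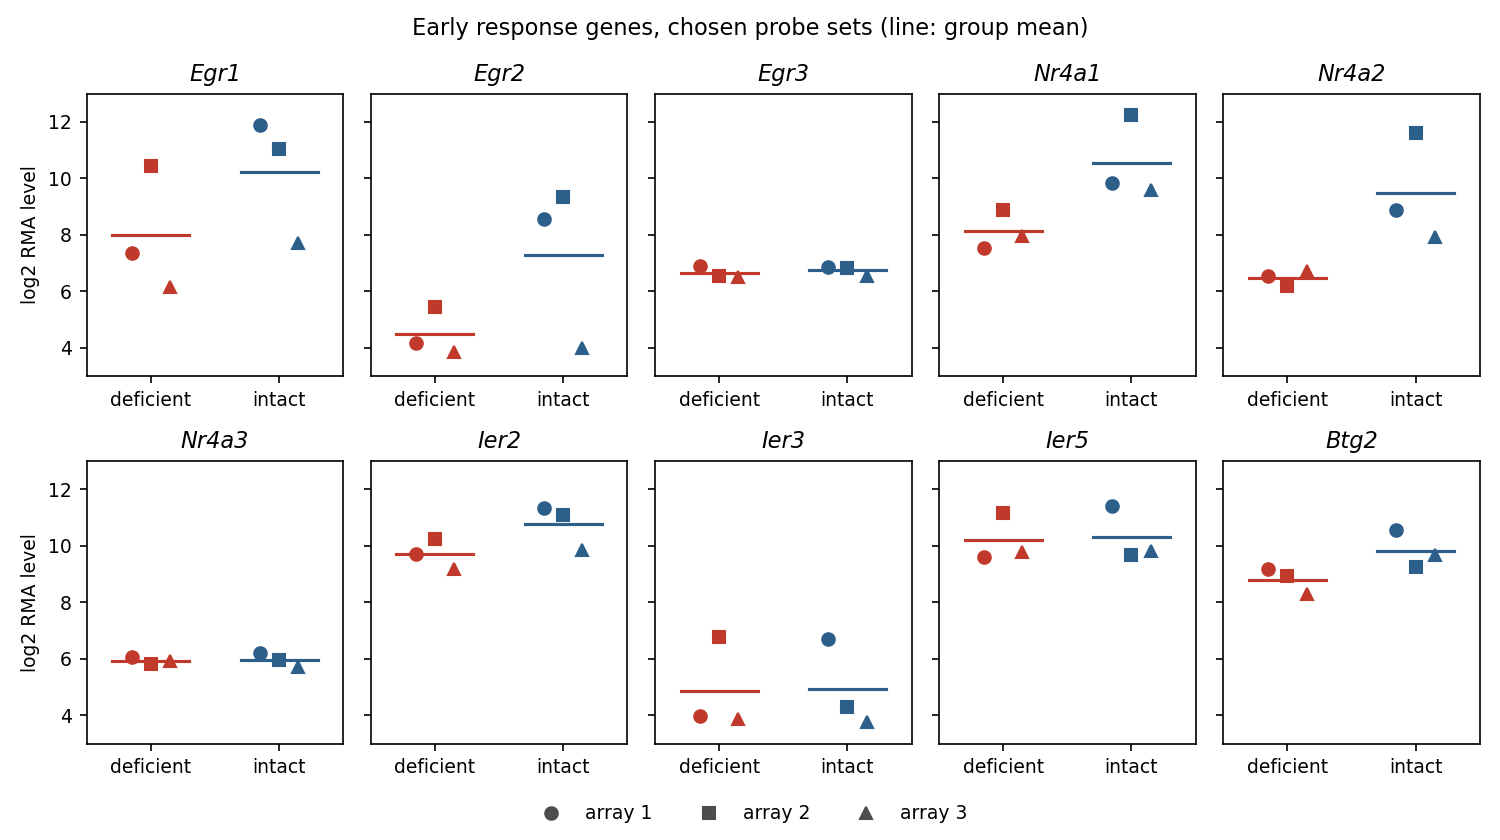
Log2 RMA level of the chosen probe set of each early response gene (vertical axis) in Cdh1-deficient (red, left) and Cdh1-intact (blue, right) leukaemias, with 1 symbol per array and a line at the group mean (n = 3 each). Nr4a1, Nr4a2 and Btg2 separate the groups, Egr1 and Egr2 overlap through Cdh1-intact array 3, and Egr3 and Nr4a3 are flat.

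Of the 10 members, the NR4A receptors Nr4a1 and Nr4a2 had the widest gaps between the groups. Nr4a1 (Nur77), which antigen receptor signals induce in lymphocytes, lay at 7.54, 8.88 and 7.97 on Cdh1-deficient arrays 1, 2 and 3 and at 9.83, 12.24 and 9.58 on Cdh1-intact arrays 1, 2 and 3. Every Cdh1-deficient array lay below every Cdh1-intact array, by a gap of 0.70 between the nearest arrays. The difference was −2.42 (SE 0.77, limma adjusted p = 0.849), a 5.34-fold lower mean signal, and −1.57 (SE 0.40) without Cdh1-intact array 2.

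Nr4a2 (Nurr1), also studied for its part in dopamine neurons, lay at 6.54, 6.17 and 6.73 on the Cdh1-deficient arrays and at 8.89, 11.61 and 7.92 on the Cdh1-intact arrays. The Cdh1-deficient values were close together, with an SD of 0.28, while the Cdh1-intact values spread widely around a top value on array 2 (SD 1.91, n = 3 each). The gap between the nearest arrays of the groups was 1.19. The difference of −2.99 (SE 0.92, limma adjusted p = 0.849) was the most negative of the 10 members, and it was −1.92 (SE 0.33) without Cdh1-intact array 2. T and NK cell markers were also highest on that array, as given above, and their part in the result was not tested.

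Nr4a2 also showed how far the reading depended on the probe set. Of its 6 probe sets, 4 followed the same course, with differences of −2.99, −2.87, −2.64 and −1.47 and no overlap between the groups. The remaining pair differed by −0.053 and −0.34 and hardly moved over the 6 arrays, with ranges of 0.14 and 0.82. Averaged over all 6 probe sets the Nr4a2 difference was −1.73 (SE 0.53).

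Nr4a3 (NOR1), the third receptor of the family, was flat in its chosen probe set. That set lay at 6.05, 5.81 and 5.93 on the Cdh1-deficient arrays and at 6.21, 5.95 and 5.73 on the Cdh1-intact arrays, a difference of −0.029 (SE 0.15), or −0.036 (SE 0.18) without Cdh1-intact array 2. Averaged over its 3 probe sets the difference was −0.69 (SE 0.41). A second Nr4a3 probe set, of lower mean, lay at 4.57, 4.32 and 4.82 on the Cdh1-deficient arrays and at 4.81, 9.12 and 4.51 on the Cdh1-intact arrays, so that Cdh1-intact array 2 alone stood out. The third lay at 3.46 to 3.82 on the Cdh1-deficient and at 3.97 to 4.22 on the Cdh1-intact arrays, close to the floor. Cdh1-intact array 2 thus held the highest level of Nr4a1, of Nr4a2 and of the responsive Nr4a3 probe set.

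**Figure D2:**
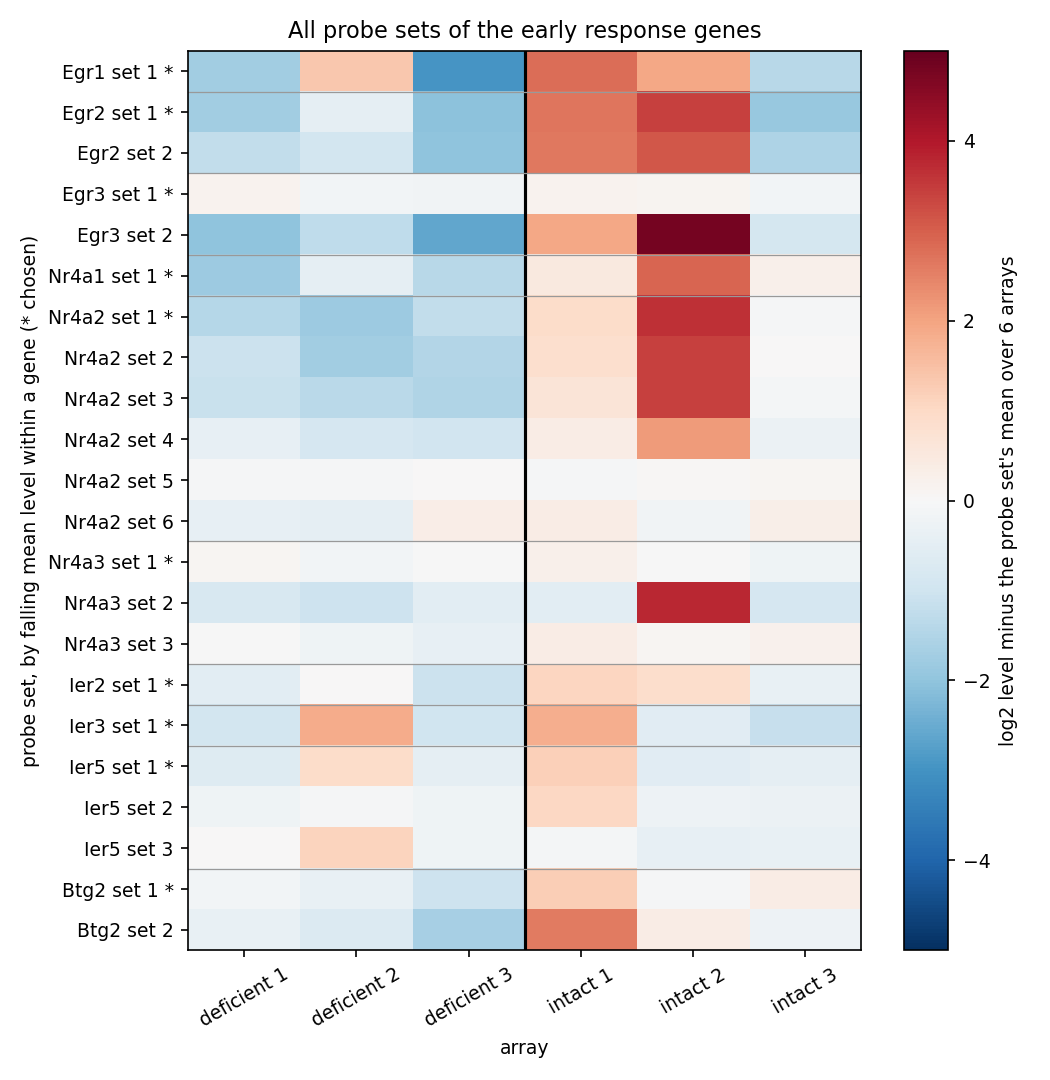
Log2 level of each of the 22 probe sets of the early response genes (rows, chosen sets starred) on each array (columns, Cdh1-deficient left of the line and Cdh1-intact right of it), minus that set's mean over the 6 arrays. The chosen sets of Egr3 and Nr4a3 are almost white while their second sets range over 7.37 and 4.80.

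The EGR factors Egr1 and Egr2 were high on Cdh1-intact arrays 1 and 2 and low on Cdh1-intact array 3. Egr1, the founding member of the family, lay at 7.36, 10.45 and 6.16 on the Cdh1-deficient arrays and at 11.89, 11.03 and 7.72 on the Cdh1-intact arrays. Its range over the 6 arrays, 5.72, was the widest among the 10 chosen probe sets. The groups overlapped, since Cdh1-deficient array 2 lay 2.73 above Cdh1-intact array 3. The difference was −2.22 (SE 1.48, limma adjusted p = 0.849), or −1.81 (SE 1.67) without Cdh1-intact array 2. It was −3.47 without Cdh1-intact array 3 and −1.31 without Cdh1-deficient array 3, which held the lowest value.

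Egr2 (Krox20), a factor also known from myelination, lay at 4.17, 5.45 and 3.86 on the Cdh1-deficient arrays and at 8.56, 9.33 and 4.00 on the Cdh1-intact arrays. Cdh1-intact arrays 1 and 2 stood more than 3 log2 units above all others, and array 3 lay among the Cdh1-deficient arrays. The values of Cdh1-deficient arrays 1 and 3 and of Cdh1-intact array 3 were near the floor, so the size of the difference is uncertain. The difference was −2.80 (SE 1.43, limma adjusted p = 0.849), or −1.79 (SE 1.34) with Cdh1-intact array 2 left out and −4.45 with Cdh1-intact array 3 left out. The second Egr2 probe set gave −2.78, with the same 2 arrays high.

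Egr3, a close relative of Egr2, had a lower mean in Cdh1-deficient leukaemias by both of its probe sets, but by very different amounts. The chosen set lay at 6.88, 6.54 and 6.51 on the Cdh1-deficient arrays and at 6.87, 6.82 and 6.55 on the Cdh1-intact arrays, a difference of −0.10 (SE 0.15) and a range of 0.37. That difference was −0.067 (SE 0.18) without Cdh1-intact array 2. The other set lay at 3.31, 4.04 and 2.72 on the Cdh1-deficient arrays and at 7.22, 10.09 and 4.43 on the Cdh1-intact arrays. There every Cdh1-deficient array lay below every Cdh1-intact array, and the difference was −3.89 (SE 1.37, limma adjusted p = 0.862 over all probe sets). Its Cdh1-deficient values were near or below the floor, so the size of that difference, and of the average over both sets, is uncertain. The order of the Cdh1-intact arrays in that set, with array 2 highest and array 3 lowest, was that of Egr2. Averaged over both sets the Egr3 difference was −1.996 (SE 0.73).

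None of the 3 IER genes passed the test, and the groups overlapped for each. Ier2, which encodes a nuclear protein linked to transcription control, lay at 9.70, 10.25 and 9.18 on the Cdh1-deficient arrays and at 11.33, 11.11 and 9.86 on the Cdh1-intact arrays. As with Egr1, Cdh1-deficient array 2 lay above Cdh1-intact array 3, here by 0.39. The difference was −1.06 (SE 0.46, limma adjusted p = 0.849), or −0.89 (SE 0.51) without Cdh1-intact array 2.

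Ier3 (IEX-1), a regulator of cell survival, lay at 3.98, 6.76 and 3.89 on the Cdh1-deficient arrays and at 6.71, 4.31 and 3.75 on the Cdh1-intact arrays. A single array of each group was high, and the other 4 were near the floor. The difference of −0.050 (SE 1.08, limma adjusted p = 0.995) therefore rested on which array was included, and it ran between −0.99 without Cdh1-deficient array 2 and 0.84 without Cdh1-intact array 1. It was −0.36 (SE 1.21) without Cdh1-intact array 2. Ier5, a regulator of heat shock factor 1, had the same 2 arrays on top. It lay at 9.62, 11.18 and 9.78 on the Cdh1-deficient arrays and at 11.42, 9.67 and 9.80 on the Cdh1-intact arrays, a difference of −0.11 (SE 0.62), or −0.42 (SE 0.65) without Cdh1-intact array 2. The other Ier5 probe sets gave −0.32 and 0.61, the last being the only one of the 22 with a higher mean in Cdh1-deficient leukaemias.

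Markers of other marrow cells also differed on these 2 arrays. For 11 measured of 12 listed neutrophil genes the mean log2 level was 10.95 on Cdh1-deficient array 2, against 8.96 and 9.72 on the other Cdh1-deficient arrays and 5.93 to 9.73 on the Cdh1-intact arrays. For 7 measured of 10 erythroid genes it ran from 4.91 to 5.73 on the Cdh1-deficient and from 4.82 to 6.78 on the Cdh1-intact arrays, and for 10 measured of 12 monocyte and macrophage genes from 6.60 to 6.97 and from 5.10 to 7.83. In both lists Cdh1-intact array 1 was the highest of all and Cdh1-deficient array 2 the highest of its group. A level above 0 on this scale does not show that a marker was present. Egr1 and Ier2 were also highest of their group on each of these 2 arrays. The part of these cells in the values of Ier3, Ier5 or any other member was not tested.

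Btg2, which slows the cell cycle and promotes shortening of mRNA tails, lay at 9.18, 8.93 and 8.29 on the Cdh1-deficient arrays and at 10.55, 9.23 and 9.68 on the Cdh1-intact arrays. The groups did not overlap, but the gap between the nearest arrays was 0.054. The difference was −1.02 (SE 0.39, limma adjusted p = 0.849), a 2.03-fold lower mean signal, and it was −1.32 (SE 0.36) without Cdh1-intact array 2. It shrank to −0.66 without Cdh1-intact array 1. Of the members whose groups did not overlap, Btg2 alone was highest on Cdh1-intact array 1. Its second probe set lay at 8.47, 8.16 and 7.19 on the Cdh1-deficient arrays and at 11.44, 9.24 and 8.57 on the Cdh1-intact arrays. That is a difference of −1.81 (SE 0.78), again without overlap.

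**Figure D3:**
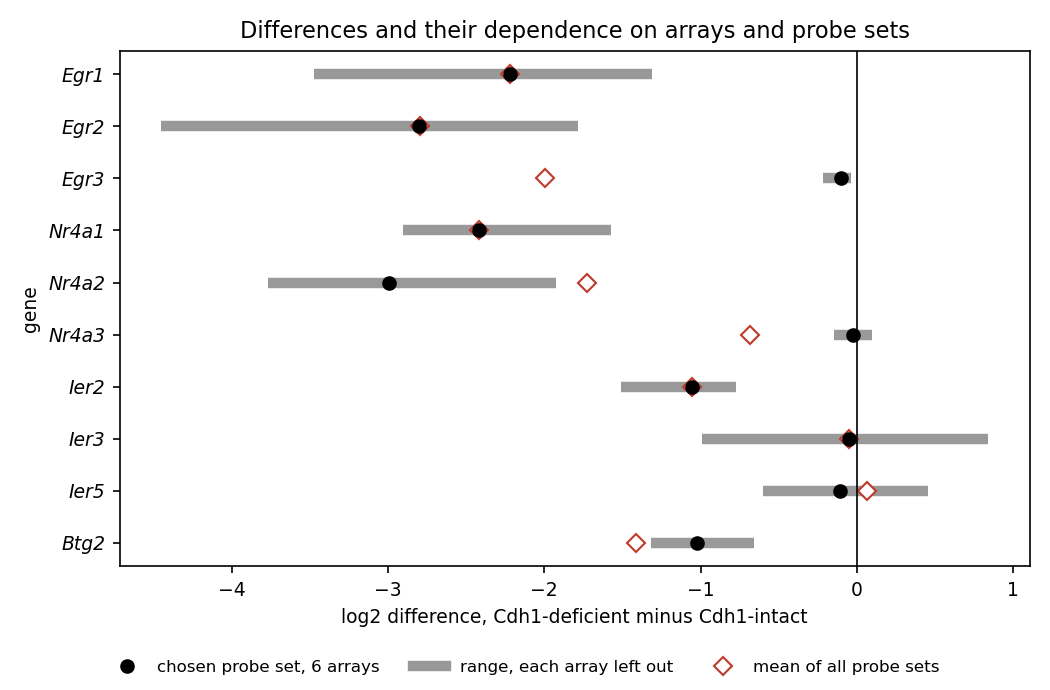
Log2 difference, Cdh1-deficient minus Cdh1-intact, of each early response gene (horizontal axis) for the chosen probe set (black), with the range over 6 fits that each left out 1 array (grey) and the value for the mean of all probe sets (open diamond). Ier3 runs between −0.99 and 0.84, and Egr3 stands at −0.10 in the chosen set and at −1.996 when its sets are averaged.

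Within the groups, 8 of the 10 members had a larger SD than the median gene, and Egr3 and Nr4a3, at 0.189 and 0.190, had a smaller one. The median within-group SD over the 10 members was 1.03 on the log2 scale, against 0.197 over all genes, and 5 of the 10 had an SD of 1 or more, a size reached by 4.27% of all genes. The SD was larger among Cdh1-intact arrays for 7 of the 10 members, and for 65.5% of all genes. After centring each member on its own mean, the average over the members was −0.86, 0.077 and −1.13 on Cdh1-deficient arrays 1, 2 and 3 and 1.26, 1.16 and −0.51 on Cdh1-intact arrays 1, 2 and 3. The 2 groups overlapped in this average, with Cdh1-intact array 3 below Cdh1-deficient array 2. Cdh1-intact array 1 lay above the member's mean for 10 of 10 members and was the highest array for 5, and Cdh1-intact array 2 was the highest for 3. Cdh1-deficient array 3 was the lowest array for 5 members and above the mean for 0.

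Genes outside the set with the most similar course over the 6 arrays were sought by the mean absolute distance from this average, after centring each gene. The nearest of 16320 named genes was Ckb, the brain-type creatine kinase, at a distance of 0.15 log2 units. It lay at 6.47, 7.33 and 6.24 on the Cdh1-deficient arrays and at 8.83, 8.22 and 6.55 on the Cdh1-intact arrays. Next came the cofilin kinase gene Limk1 (0.32), the nuclear IκB family gene Nfkbid (0.32), the T-cell receptor signalling gene Tespa1 (0.32) and the small nucleolar RNA gene Snord104 (0.33). Mettl7a1 (0.34), the BTG/TOB family gene Tob1 (0.34) and the coactivator gene Cited2 (0.34) completed the 8. None of the 8 was in the list of other immediate early genes. The values were centred but not scaled, so a gene with the same course and larger swings also stands far off. Of the members themselves Ier2 was closest to their common course, at 0.18, and Egr2 farthest, at 1.22. A gene without any variation would stand at 0.83, and the median of the 16320 genes was 0.86.

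Most other immediate early genes also had lower means in Cdh1-deficient leukaemias. Of 31 measured of 32 listed, 27 were lower and 4 higher, beside 49.1% lower among all genes, with a median of −1.05 and 0 called by limma. The counts were again 27 and 4 without Cdh1-intact array 2, with a median of −1.17. At an unadjusted p under 0.05, 10 were lower, beside 1.49% of all genes, and 1 was higher, which was Fosl2. The most negative were the activation antigen gene Cd69 at −3.62 (SE 0.48) and the AP-1 subunit gene Fosb at −3.08 (SE 0.61), and the most positive were the AP-1 subunit gene Fosl2 at 1.12 (SE 0.35) and the clock gene Per1 at 0.51 (SE 0.41). The list held genes known to have moved in these data and gives no independent support.

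Relatives and partners of the members had a median closer to 0. Of 13 measured of 14, 9 were lower and 4 higher, beside 49.1% lower among all genes. The median was −0.17 and limma called 0. At an unadjusted p under 0.05 there was 1, against 5.50% of all genes in either direction. Leaving out Cdh1-intact array 2 gave 8 lower and 5 higher, with a median of −0.13. Ier5l, a paralogue of Ier5, lay at 5.80, 5.51 and 5.94 on the Cdh1-deficient arrays and at 8.02, 6.46 and 5.83 on the Cdh1-intact arrays. Nab2, a corepressor that EGR factors induce and that binds them, lay at 5.67, 5.74 and 5.46 on the Cdh1-deficient arrays and at 5.31, 8.67 and 5.83 on the Cdh1-intact arrays. The Ier5l course was that of Cdh1-intact array 1, and the Nab2 course that of Cdh1-intact array 2 alone. Without that array Nab2 differed by 0.054 (SE 0.20). At the other end the retinoid X receptor gene Rxrb, whose product can pair with Nr4a1 and Nr4a2, differed by 0.13 (SE 0.17) and the zinc finger gene Wt1, whose levels were near or below the floor, by 0.090 (SE 0.12). Tob2, a BTG/TOB family gene singled out after its values were seen, was the only 1 of the 13 relatives whose groups did not overlap. Among all genes 5.09% were lower without overlap, so nothing is read from this count. Tob2 differed by −0.77 (SE 0.19), or −0.66 (SE 0.20) without Cdh1-intact array 2.

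Transcripts of the signalling route to these genes had medians close to 0. Of 16 measured of 19 listed upstream transcription factors, 6 were lower and 10 higher, beside 49.1% lower among all genes. The median was 0.10 and limma called 0. There was 1 at an unadjusted p under 0.05, against 5.50% of all genes in either direction. The calcium-responsive factor gene Nfatc2 differed by −0.62 (SE 0.92) and Crem, a cyclic AMP responsive factor gene, by −0.58 (SE 0.59), while Mef2c differed by 1.38 (SE 1.77) and Mef2d by 0.62 (SE 0.32). Mef2c lay at 9.15, 8.63 and 9.41 on the Cdh1-deficient arrays and at 9.78, 3.39 and 9.87 on the Cdh1-intact arrays. Without Cdh1-intact array 2 the direction of 3 of these 4 genes turned, with Mef2c at −0.77 (SE 0.24), Nfatc2 at 0.47 (SE 0.25) and Crem at 0.072 (SE 0.30), and Mef2d stood at 0.25 (SE 0.13). The list then had 5 lower and 11 higher, with a median of 0.14. In that fit 5 of the 16 had an unadjusted p under 0.05 in either direction. The same fit gave 3 of 10 members, 2 of 13 relatives and 12 of 31 other immediate early genes. It gave 0 of 16 RAS-ERK and calcium signalling genes, 1 of 15 mRNA decay factors and 0 of 14 reported targets. The share over all genes is not given for that fit, so nothing is read from these counts. Of 16 measured of 23 RAS-ERK and calcium signalling genes, 7 were lower and 9 higher, with a median of 0.12 and 0 called. Again 1 was at an unadjusted p under 0.05, against the same 5.50% of all genes. The extremes there were Rps6ka3 at −0.20 (SE 0.63), Map2k2 at −0.12 (SE 0.18), Ppp3ca at 0.81 (SE 0.55) and Sos1 at 0.83 (SE 0.38). Without Cdh1-intact array 2, Rps6ka3 turned to 0.52 (SE 0.27), Map2k2 was at −0.21, Ppp3ca at 0.18 and Sos1 at 0.88, and the list had 3 lower and 13 higher, with a median of 0.11. Arrays measure transcripts, so the activity of these proteins was not measured.

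Genes that regulate the decay of mRNAs had a median near 0. Of 15 measured of 16 mRNA decay factors, 4 were lower and 11 higher, beside 49.1% lower among all genes. The median was 0.12 and limma called 0. At an unadjusted p under 0.05 there were 2, against 5.50% of all genes in either direction. Zfp36, itself an immediate early gene whose product destabilises AU-rich mRNAs, differed by −0.84 (SE 0.66) and its relative Zfp36l1 by −0.57 (SE 0.25), while Pan3 differed by 0.39 (SE 0.16) and Hnrnpd by 0.35 (SE 0.12). Without Cdh1-intact array 2, Zfp36 differed by −1.39 (SE 0.55), Zfp36l1 by −0.34, Pan3 by 0.27 and Hnrnpd by 0.31, and 5 genes of the list were lower and 10 higher, with a median of 0.13.

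Genes reported elsewhere as EGR or NR4A targets were lower in 12 of 14 measured of 16 listed, beside 49.1% lower among all genes, with a median of −0.39, 0 called by limma and 0 at an unadjusted p under 0.05. Without Cdh1-intact array 2, 11 were lower and 3 higher and the median was −0.21, and without Cdh1-intact array 1 it was −0.59. The most negative were genes that T cells express. The inhibitory receptor gene Pdcd1 lay at 3.27 to 3.56 on the Cdh1-deficient arrays and at 3.27, 11.74 and 5.80 on the Cdh1-intact arrays, and Cd5 at 3.68 to 3.95 on the Cdh1-deficient arrays and at 3.81, 11.23 and 4.22 on the Cdh1-intact arrays. The highest Pdcd1 and Cd5 values were those of Cdh1-intact array 2, where the mean of the T and NK markers was also highest. Those markers include Cd5. Their mean was next highest on Cdh1-intact array 3, at 6.60, against 5.15 to 5.22 on the Cdh1-deficient arrays. All Cdh1-deficient values of Pdcd1 and Cd5 were near or below the floor. Without Cdh1-intact array 2, Pdcd1 differed by −1.16 (SE 0.71) and Cd5 by −0.17 (SE 0.17). Ndrg1 differed by 0.64 (SE 0.57) and Cd44 by 0.30 (SE 0.49) in the other direction, and without that array Cd44 turned to −0.28 (SE 0.14) while Ndrg1 was at 0.88 (SE 0.62).

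**Figure D4:**
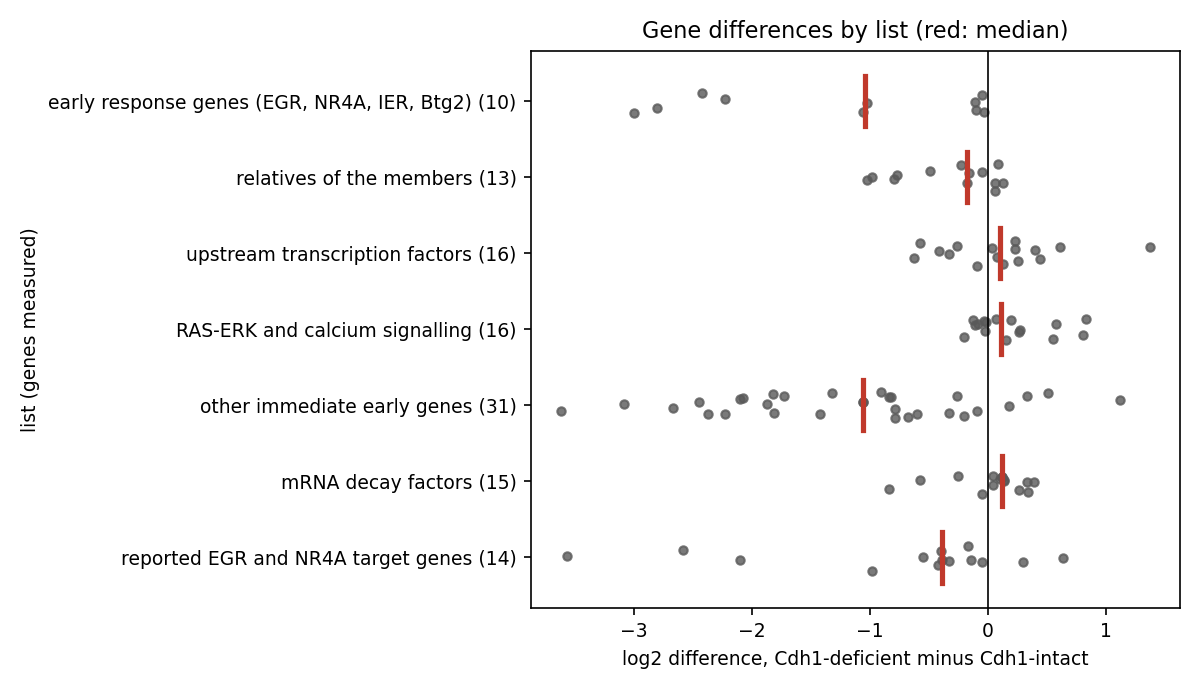
Log2 difference, Cdh1-deficient minus Cdh1-intact, of each measured gene (points) in the 7 lists, with the median of each list in red. The early response genes and the other immediate early genes have medians of −1.04 and −1.05, and the transcription factor, signalling and mRNA decay lists have medians between 0.10 and 0.12.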

How the data were processed

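RNA of 6 sorted leukaemia samples, 3 Cdh1-deficient and 3 Cdh1-intact by the sample titles, was measured on one-colour Affymetrix arrays. The authors deposited 1 log2 value per probe set and array, made with RMA per the submitters' processing notes, and no version is given in the sources used here. RMA equalises array distributions, so a change in total RNA cannot be seen. Of 45101 probe sets, 34945 carried 1 gene symbol in the platform annotation and gave 18193 genes, each represented by its highest-mean probe set. No level filter was applied, and the number of arrays limits the precision. Differences are Cdh1-deficient minus Cdh1-intact, fitted over all genes in R 4.3.3 by limma 3.58.1 (linear model, moderated two-sided test, Benjamini-Hochberg over all genes, threshold 0.05), the tool that the series design names. The fit was also tested on simulated data. The members and lists were chosen with earlier results of these data known, so no p is given over a list. Genes named are the 10 members, up to 2 genes at each end of a list and the 8 nearest in course, with predicted genes passed over. Other genes are said to be so, apart from the Fzr1 check. Alternatives were other normalizations, level filters, probe set rules, variance models, array weights, the replicate number as a block, and each array left out. Same-numbered arrays deviated from their group means with correlations across genes of −0.14, 0.011 and 0.041, so the numbers were not taken as pairs. List genes without a single-symbol probe set were not analysed here.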

Additional observations from a re-analysis of the deposited data

How the results depend on the processing

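With limma, 0 genes were called in the main fit and in each of the 16 alternatives at an adjusted p under 0.05. At an adjusted p under 0.1 the main fit had 0 genes, and the fits without Cdh1-intact array 1, Cdh1-intact array 3 and Cdh1-deficient array 2 had 2, 2 and 1, with 0 members among them, while the other 13 alternatives had 0. At an unadjusted p under 0.05 the main fit had 1000 genes. Of 158 differences of a member under an alternative, 149 kept their direction and 9 turned. The level filters, the fit over all probe sets, the other variance model and the replicate block returned the member differences of the main fit. So did the removal of shared-target probe sets, for the members it kept. A direction could not turn there, and all 9 turns came from averaging probe sets or leaving out an array. Those of Egr1, Egr2, Egr3, Nr4a1, Nr4a2, Ier2 and Btg2 kept it in all alternatives run. Ier5 turned to 0.062 when its probe sets were averaged, to 0.45 without Cdh1-intact array 1, to 0.18 without Cdh1-deficient array 1 and to 0.097 without Cdh1-deficient array 3, and was lowest at −0.60 without Cdh1-deficient array 2. Ier3 turned to 0.84, 0.40 and 0.44 in those same 3 fits without an array, and was lowest at −0.99 without Cdh1-deficient array 2. Nr4a3 turned to 0.095 without Cdh1-intact array 1 and to 0.032 without Cdh1-deficient array 2, was −0.15 without Cdh1-intact array 3, and was lowest at −0.69 when its probe sets were averaged. With array weights, Ier3 was at −0.36 and Ier5 at −0.29. With 1 array left out, 7 to 10 members were lower and the member median ran between −1.30 and −0.72. In those fits 3 to 6 members did not overlap, with 6 without Cdh1-intact array 3 and 5 without Cdh1-deficient array 2. Fewer arrays make a lack of overlap easier to reach. Averaging all probe sets of a gene gave a member median of −1.57, with 9 members lower and 4 not overlapping. The share of all genes without overlap is not given for the alternatives. The replicate number as a block left 0 genes called. Each number holds 1 array of each group, so the block could change the SEs but not the member median of −1.04.

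The median of the upstream transcription factor list was −0.030 when probe sets were averaged and ran between 0.0032 and 0.14 with 1 array left out. The B-cell marker median, 1.12 with all arrays, was −0.33 without Cdh1-intact array 2 and otherwise up to 1.88. The T and NK marker median, −1.76 with all arrays, was −0.50 without that array and otherwise down to −2.47. With 1 array left out the median ran between −0.59 and −0.21 for reported EGR and NR4A targets, between −1.48 and −0.92 for other immediate early genes, between 0.080 and 0.18 for RAS-ERK and calcium signalling and between 0.076 and 0.17 for mRNA decay factors. Causes of these shifts were not tested. The filter at the median probe set level and the removal of shared-target probe sets each left out Ier3. The 9 remaining members kept their differences of the main fit, so 9 of 9 lower only restates that fit.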
